A study of Mus musculus with 2 samples.

Results

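Kinesins are motor proteins that hydrolyze ATP to move along microtubules or to take microtubule ends apart. Members of the family build and pull the mitotic spindle and the midbody of dividing cells, whereas others carry vesicles, endosomes and mitochondria through the cytoplasm or work in cilia. Hepatocytes of the adult liver rarely divide and use kinesins for traffic toward their basolateral and canalicular membranes, whereas the mitotic motors are genes of the G2 and M phases of the cell cycle. The kinesin genes described here were all genes whose name in the array design was Kif followed by a number or by C and a number, with an optional letter, and every probe of such a gene was taken. They were 41 genes with 99 probes and 117 spots, of 37074 gene names, 56605 probes and 59305 spots on the array. The rule reads gene names alone.

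The cells were primary hepatocytes of *Drp1*LiKO mice (*Alb-Cre* Tg/+ *Drp1* flox/flox), in which the albumin promoter drives Cre and so deletes *Drp1* in hepatocytes, and of control littermates (*Drp1* flox/flox, without Cre, called wild type in the sample labels). Both were on the C57BL/6 background, were untreated as far as the sources used here say, and were harvested 24 h after seeding on collagen. Age and sex of the mice behind the arrays and the number of mice per array were not given in the sources used here. RNA was hybridized to 1 array per genotype, so no test was possible, no p-value is given, and every difference describes these 2 arrays.

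Values are processed signals, a background-corrected intensity, and the log2 ratio is *Drp1*LiKO minus control, each array first scaled to its own 75th percentile. Signals are printed before that scaling. The percentile was 313 for the control and 356 for the *Drp1*LiKO array, so equal signals correspond to a slightly negative log2 ratio. Of 56600 probes, 48.2% and 52.1% were well above background, and the lowest such signals were 18.2 and 15.0. A ratio in which 1 array was not well above background is a bound and is written as "at least". A gene passed the threshold at a Z score of 2 over 30275 probes, which corresponded to 2.46-fold higher or 2.48-fold lower. The targeted gene, listed as *Dnm1l*, gave 2602 on the control and 1217 on the *Drp1*LiKO array by its brightest probe. Its log2 ratio was -1.28, with a Z score of -1.95. By the median of its probes the log2 ratio was -0.79. Whether its probes lie in the deleted part was not given in the sources used here.

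The genes were sorted into 13 motors of mitosis and cytokinesis, 17 transport motors, 6 motors of cilia and centrioles and 5 others. These groups were chosen with earlier results of these data known. *Kif2a*, a depolymerase of dividing and resting cells, was placed among the 5 others. The start of a gene shows part of this grouping in its letters. Genes of the G2 and M phases often carry, near their start, a cell cycle homology region (CHR), the DNA element bound by the DREAM and MuvB complexes, with the core TTTGAA, and in front of it CCAAT boxes bound by the factor NF-Y. The following stretches, read from the RefSeq promoter table of GRCm38.p6, are shown because these letters recur in the mitotic group. Each runs 5′ to 3′ on the strand of its gene from 70 bases before the start to the start, or to the end of the CHR core where that lies after the start. Capitals mark the CHR core TTTGAA, the box CCAAT and the E2F element TTTGGCGC on either strand, so that a match on the opposite strand reads TTCAAA for the first, ATTGG for the box and GCGCCAAA for the element.
*Kif11*, chr19:37376312-37376381, plus strand: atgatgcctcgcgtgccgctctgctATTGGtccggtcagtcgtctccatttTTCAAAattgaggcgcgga
*Kif22*, chr7:127042421-127042490, minus strand: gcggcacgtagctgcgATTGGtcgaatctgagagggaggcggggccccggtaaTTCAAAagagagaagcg
*Kif15*, chr9:122951011-122951080, plus strand: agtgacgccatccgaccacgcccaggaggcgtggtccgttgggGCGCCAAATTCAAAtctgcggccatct
*Kif23*, chr9:61946792-61946869, minus strand: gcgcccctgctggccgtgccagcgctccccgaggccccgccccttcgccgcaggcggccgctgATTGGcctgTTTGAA
*Kif18b*, chr11:102925116-102925194, minus strand: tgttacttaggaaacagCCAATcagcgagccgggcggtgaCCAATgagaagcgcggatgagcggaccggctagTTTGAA
*Kif18a*, chr2:109280668-109280737, plus strand: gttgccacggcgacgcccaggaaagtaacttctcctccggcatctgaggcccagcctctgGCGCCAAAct
*Kif1c*, chr11:70700478-70700547, plus strand: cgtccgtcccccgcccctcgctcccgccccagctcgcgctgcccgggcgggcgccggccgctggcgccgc

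In *Kif11* and *Kif22* the CHR core stood on the opposite strand, 19 and 17 bases before the start, with a CCAAT box 45 and 54 bases before it. In *Kif23* and *Kif18b* it began at bases 3 and 4 of the transcript. In *Kif15* it ran directly on from the E2F element, both on the opposite strand. *Kif18a* had that element and no CHR core in its window, and *Kif1c*, a transport motor, had none of the capitalized letters.

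A window of 250 bases before to 50 bases after the start was at hand for 33 of the 41 genes. The other genes were *Kif5a*, *Kif5b*, *Kif13b*, *Kif19a*, *Kif20a*, *Kif21b*, *Kifc2* and *Kifc3*. TTTGAA on either strand stood in 11 of 12 mitotic windows (91.7%), the exception being *Kif18a*, and in 9 of them it lay within 50 bases of the start. It stood in 3 of 25 windows of the other kinesins, which were those of *Kif1a*, *Kif26b* and *Kif27*, and in 17.9% of 32851 windows of all genes, or 4.94% within 50 bases of the start. Among partners of the kinesins in division it stood in 10 of 13 windows (76.9%), and among partners in transport in 0 of 17. CCAAT stood in 8 of 12 mitotic windows (66.7%), in 4 of 13 transport windows (30.8%) and in 37.4% of all windows. TTTGGCGC was found in *Kif15* and *Kif18a* alone among kinesins and in 0.514% of all windows. The longer TTTGAAT, a form of the core, stood in 5 of 12 mitotic windows and in 4.29% of all. Of the other strings searched, the shorter E2F form TTGGCGC stood in the same 2 mitotic windows and in 2.45% of all, while TTCGAA (1.56% of all), TTTCCCGC (1.07%) and GGCGGGAA (2.19%) stood in 0 of the 12. These are matches of letters, not measured binding sites, and absence concerns these windows alone. The windows of *Kifc1* and *Kifc5b*, close relatives, shared a run of 68 bases and are not independent.

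**Figure D1:**
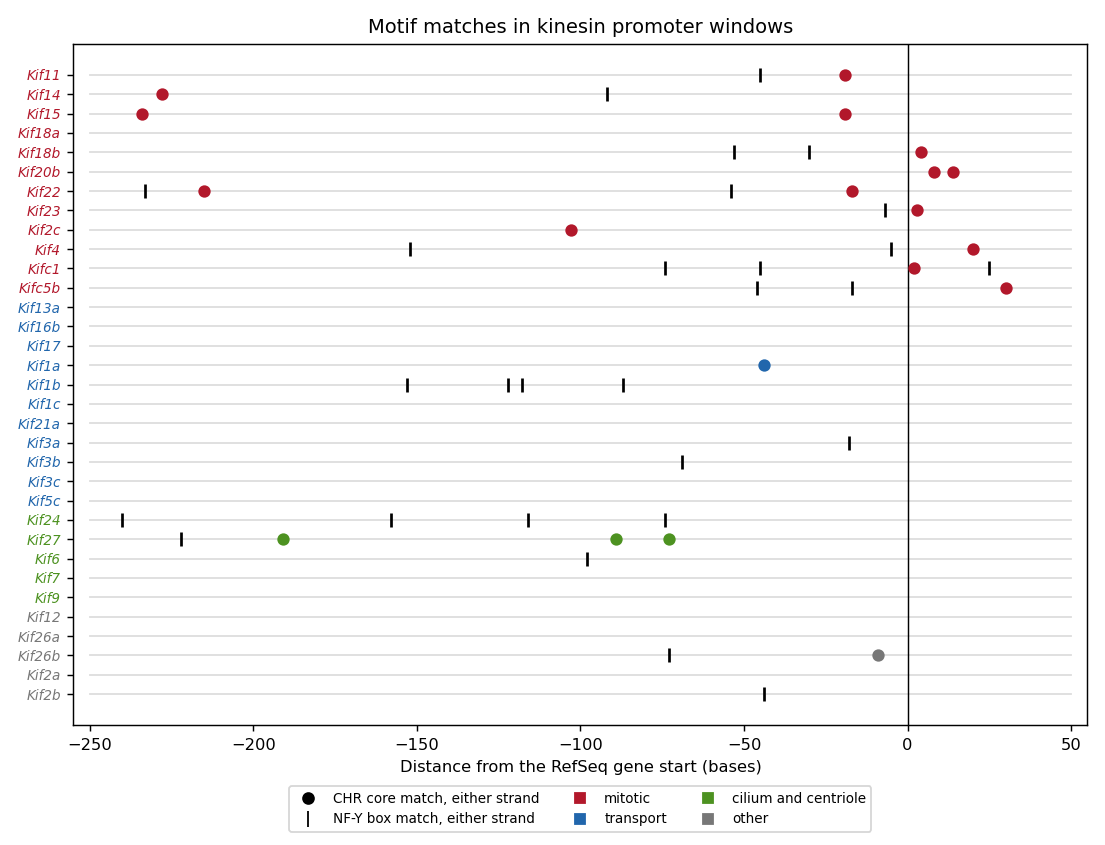
Positions of the CHR core (circles, TTTGAA) and of the NF-Y box (bars, CCAAT) on either strand in the promoter windows of 33 kinesin genes; the x axis is the distance in bases from the RefSeq start, each line is a gene, colors are role groups, and matches of genes with more than 1 start share a line. Circles stand on 11 of the 12 mitotic lines and cluster around the start, and on 3 of the other lines.

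Of the 41 kinesin genes, 37 had a probe well above background on at least 1 array and 28 had their brightest probe well above background on both. *Kif2b*, a depolymerase, *Kif6* and *Kif27*, motors of motile cilia, and *Kif7*, a Hedgehog regulator of the cilium, had none, and the highest signal among their probes was 18.0, in control cells. Among the 28 genes, 6 fell past the threshold and 0 rose. Over the 37 genes 8 fell (21.6%), beside 2.81% of 20165 genes, and 0 rose, beside 3.5%, but *Kif14* and *Kif26b* among the 8 were seen on the control array alone, and the sign of a gene that enters that way follows from the filter and the floor. The genes that fell were *Kif11*, *Kif14*, *Kif18a*, *Kif18b*, *Kif23*, *Kif26b*, *Kif2c* and *Kif4*. All but *Kif26b* belonged to the mitotic group. At a plain 2-fold threshold 11 genes fell, beside 4.59% of all genes, and 1 rose, beside 5.32%. Over probes, 9 of the 63 compared fell, beside 2.49% of all probes. Among the 28 genes measured on both arrays 17 had a ratio below 0 and 11 above, with a median log2 ratio of -0.29, against -0.05 over all genes. Of the 9 others, 5 were bounds below 0, 3 were bounds above 0 and *Kif12* had no fold. 

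**Figure D2:**
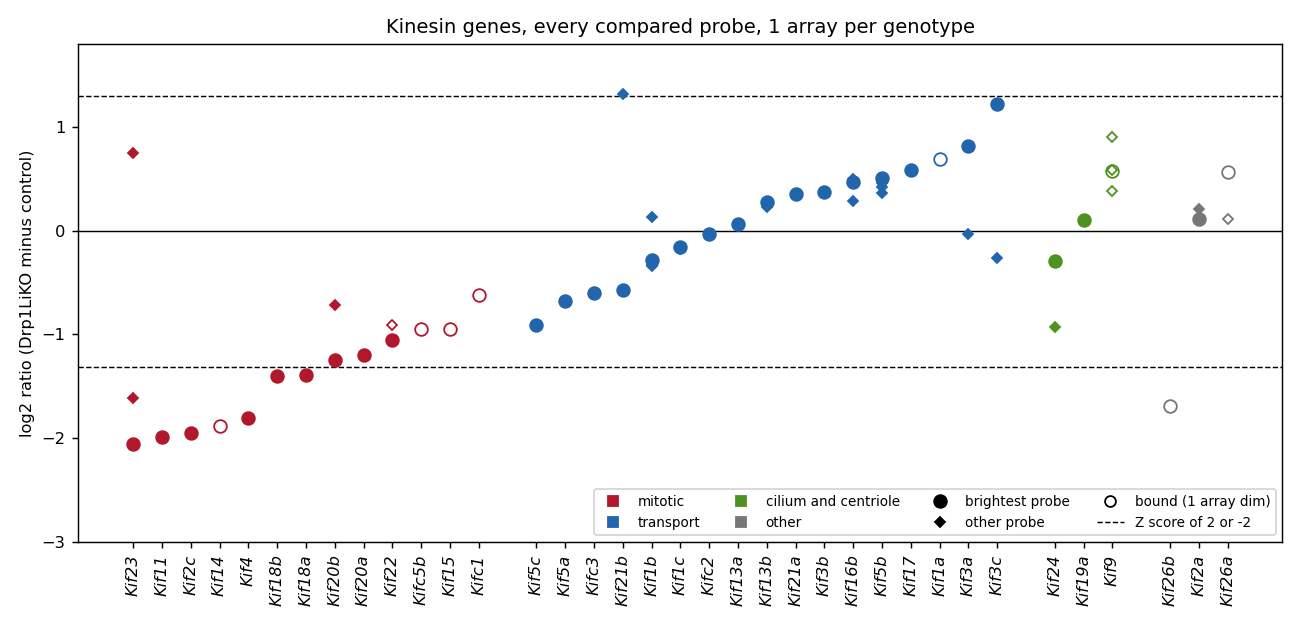
Log2 ratio (y axis, *Drp1*LiKO minus control) of each compared probe of 36 kinesin genes (x axis) in 4 role groups, 1 array per genotype and hence no error bars; circles are brightest probes, diamonds other probes, open symbols bounds, and dashed lines a Z score of 2 or -2. The 9 mitotic genes measured on both arrays lie below 0 by their brightest probe, the 4 open mitotic circles owe their sign to the filter and the floor, transport genes lie on both sides of 0, and the probes of *Kif23*, *Kif21b*, *Kif3a*, *Kif3c* and *Kif1b* lie on both sides.

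The 9 mitotic genes measured on both arrays all had a ratio below 0 by their brightest probe, where 55.5% of all genes had a ratio below 0. This depends on the grouping, since *Kif2a*, which also acts in dividing cells but was placed outside the group, had a log2 ratio of 0.11. *Kif14*, *Kif15*, *Kifc1* and *Kifc5b* were seen on the control array alone, so that their sign follows from the filter and the floor, and are given as bounds. The median log2 ratio was -1.40 over the 9 genes, and -1.39 over all 13 with the 4 bounds at their value. Of the 9, 6 passed the threshold, beside 2.81% of all genes, and the bound of *Kif14* passed as well. The study's own list of mitotic genes, drawn from these same arrays, holds *Kif11*, *Kif20b*, *Kif23* and *Kif2c*, so that the direction of these 4 is not independent of that choice. Of these, *Kif20b* did not pass here, with a Z score of -1.90.

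Among the motors that open and shape the spindle, *Kif11* had a lower value in *Drp1*LiKO cells. The others, *Kif15*, *Kifc1* and *Kifc5b*, are bounds whose sign follows from the filter and the floor. *Kif11*, which slides spindle microtubules apart, fell from 67.2 on the control to 19.3 on the *Drp1*LiKO array, a log2 ratio of -1.99 (chr19:37495755-37495814, mm9). *Kif15*, which helps to keep the spindle bipolar, had 25.4 and 5.30, the latter not well above background, and was at least 1.93-fold lower without passing the threshold, which it passed without a floor for dim signals. *Kifc1*, a minus end directed motor of spindle poles, had 20.3 and 9.18 and was at least 1.54-fold lower. Its relative *Kifc5b* had 25.5 and 13.8 and was at least 1.94-fold lower. *Kif11* alone of these motors was well above background on both arrays.

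The motors of chromosomes and their attachment had lower values in *Drp1*LiKO cells. *Kif2c*, a depolymerase at centromeres, fell from 81.1 to 23.8, a log2 ratio of -1.95. *Kif18a*, which aligns chromosomes at the metaphase plate, fell from 44.6 to 19.2, a log2 ratio of -1.39, and *Kif18b*, which shortens astral microtubules, fell from 48.6 to 20.9, a log2 ratio of -1.40. These stood just past the threshold, with Z scores of -2.13 and -2.14, and did not pass without that floor. *Kif22*, a motor on chromosome arms, had 1993 and 1086, a log2 ratio of -1.06, and did not pass. Its other probe, lost from view in the *Drp1*LiKO array, was at least 1.88-fold lower.

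The motors of the central spindle and the midbody held the lowest log2 ratio among kinesins measured on both arrays. The bounds of *Kif14* and *Kif26b* may lie lower, and with the deposited normalized values *Kif2c* and *Kif11* did. *Kif23*, the motor of the centralspindlin complex, fell from 172 to 46.9, a log2 ratio of -2.06 with a Z score of -3.15. *Kif4*, which acts on chromosome arms and the central spindle, fell from 118 to 38.1, a log2 ratio of -1.81. *Kif14*, a motor of cytokinesis, fell from 48.6 to a signal not well above background and was at least 3.68-fold lower. *Kif20b* (520 and 248, log2 ratio -1.25, Z score -1.90) and *Kif20a* (918 and 453, log2 ratio -1.20, Z score -1.83), which act in cytokinesis, lay just short of the threshold.

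The 3 mitotic genes with the brightest probes, *Kif22*, *Kif20a* and *Kif20b*, were those measured on both arrays that did not pass, at 2.08-fold to 2.38-fold lower. The 6 that passed with a measured ratio had *Drp1*LiKO signals of 19.2 to 46.9 whereas the 3 brighter genes had 248 to 1086. The spread between repeated spots, estimated from the few dim probes printed 10 times, gave an SD of the log2 ratio of 0.28 to 0.33 at these signals and of 0.05 to 0.20 for the 3 brighter genes. All 9 measured log2 ratios exceeded this SD. This spread leaves out every difference between cultures and animals. With normexp background correction of the raw intensities, *Kif20a*, *Kif20b* and *Kif22* passed and *Kif11*, *Kif14*, *Kif18a*, *Kif18b* and *Kif2c* did not, with a mitotic median of -0.72. *Kif23* and *Kif4* passed in each of 12 alternative settings.

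**Figure D3:**
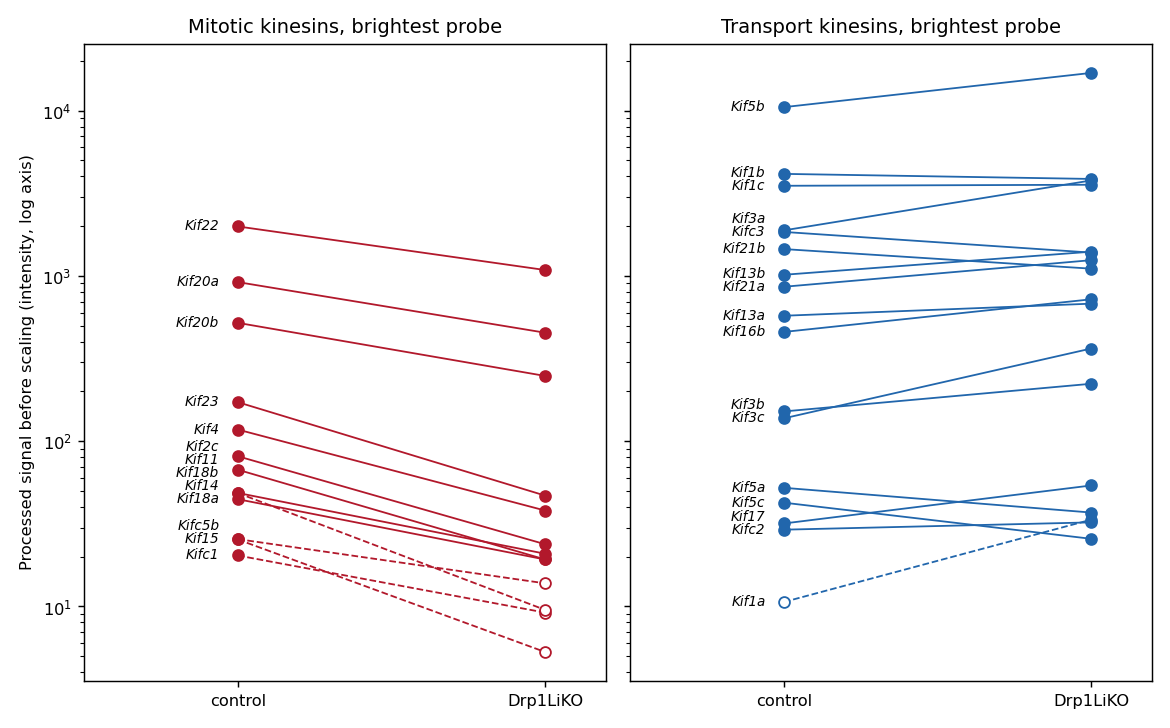
Processed signal before scaling (y axis, log scale) of the brightest probe of 13 mitotic and 17 transport kinesins in the control and the *Drp1*LiKO array (x axis); filled circles are well above background, open circles are not, and dashed lines join values of which 1 is not. The 9 solid mitotic lines descend, as do the 4 dashed ones of genes seen on the control array alone, and the transport lines run in both directions around signals of up to 16914.

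The transport motors showed values on both sides of 0. Of the 17 genes, 7 had a ratio below 0 and 10 above, and 0 passed the threshold in either direction, beside 6.3% of all genes. The median log2 ratio was 0.17 over the 16 genes measured on both arrays and 0.28 with the bound of *Kif1a* included. The difference in median between the mitotic and the transport group was -1.68 on the log2 scale with the bounds included. Over genes measured on both arrays it was -1.57.

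Among conventional kinesin heavy chains, which carry mitochondria and vesicles, *Kif5b* had signals of 10499 and 16914, a log2 ratio of 0.51. Its 4 probes above background all had higher values in *Drp1*LiKO cells, with log2 ratios of 0.37 to 0.51. The other two, forms best known from neurons, had the opposite sign. *Kif5a* had 52.2 and 37.0, a log2 ratio of -0.68, and *Kif5c* had 42.5 and 25.7, a log2 ratio of -0.91. The *Kif5a* probe was printed 10 times. Its 9 usable spots lay between 45.9 and 58.7 with a median of 52.6 on the control array. On the *Drp1*LiKO array they lay between 31.0 and 42.1 with a median of 37.4. These spots share 1 RNA sample per genotype, so their spread is that of the spots alone.

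The heterotrimeric kinesins of the cytoplasm and cilium held the highest log2 ratio of a brightest probe measured on both arrays. The bound of *Kif1a* may lie higher. *Kif3c* had 138 and 363 by its brightest probe, a log2 ratio of 1.22 with a Z score of 1.88. Another of its probes had 128 and 121, a log2 ratio of -0.27. *Kif3a* had 1886 and 3780, a log2 ratio of 0.82, by its brightest probe and 74.0 and 82.0, a log2 ratio of -0.03, by another. *Kif3b* had 151 and 223, a log2 ratio of 0.37, by its sole compared probe. With normexp correction *Kif3a* and *Kif3c* passed the threshold, at 0.82 and 0.94. *Kifap3*, their adaptor subunit, had 496 and 693, a log2 ratio of 0.30.

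Kinesin-3 motors carry mitochondria, endosomes and vesicles. *Kif1b*, with an isoform that moves mitochondria, had 4145 and 3862, a log2 ratio of -0.28. Its other 3 probes measured on both arrays gave -0.34, -0.33 and 0.13. The last of these is shown because it is the probe that went the other way, and it spans an intron, since its 60 bases lie across a longer stretch of mm9.
*Kif1b*, probe with a log2 ratio of 0.13, chr4:148554898-148555630: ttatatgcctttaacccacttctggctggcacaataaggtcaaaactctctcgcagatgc

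*Kif1c*, a vesicle motor, had 3511 and 3562, a log2 ratio of -0.16, and *Kif13a*, of endosomes, had 0.06. *Kif13b* had 1016 and 1401, a log2 ratio of 0.28, and *Kif16b*, which binds early endosomes, had 458 and 722, a log2 ratio of 0.47, with all 3 of its probes between 0.29 and 0.50. *Kif1a*, the neuronal carrier of synaptic vesicle precursors, was at least 1.62-fold higher. This probe was also printed 10 times and was well above background in 0 of 8 usable control spots and in 9 of 9 *Drp1*LiKO spots, with medians of 11.4 and 33.6.

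*Kif21b*, which slows microtubule growth, had 1454 and 1107 by its brightest probe, a log2 ratio of -0.58. A second probe (chr1:138074490-138074549, mm9) rose from 196 to 555, a log2 ratio of 1.32, and was the only kinesin probe past the threshold upward, beside 2.94% of all probes. Its relative *Kif21a* had 860 and 1245, a log2 ratio of 0.35. Of the other transport motors, *Kifc3*, a minus end directed motor of epithelia, had 1846 and 1384, a log2 ratio of -0.60. *Kif17* had 31.8 and 53.9, a log2 ratio of 0.58, and *Kifc2* had a log2 ratio of -0.04.

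Among motors of cilia and centrioles, *Kif24*, a depolymerase of centrioles, had 173 and 161, a log2 ratio of -0.29, by its brightest probe and 61.6 and 36.8, a log2 ratio of -0.93, by another. *Kif19a*, which limits ciliary length, had 57.0 and 69.3, a log2 ratio of 0.10. *Kif9* was below detection in the control array in all 5 of its probes, and 4 of them were above it in *Drp1*LiKO cells, with the brightest at least 1.5-fold higher. Of the remaining genes, *Kif2a*, a depolymerase of dividing and resting cells, had 891 and 1091, a log2 ratio of 0.11. *Kif26b*, known from kidney development, fell from 42.5 to a signal not well above background and was at least 3.22-fold lower. Another probe of it was seen in the *Drp1*LiKO array alone, at 19.5, which allows no fold, so its fall rests on 1 of 5 probes. *Kif26a* was at least 1.48-fold higher, and *Kif12* was seen in the *Drp1*LiKO array alone, at 17.6, with no fold.

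Probes of a gene did not always go the same way. Of 15 genes with a ratio or bound from at least 2 probes, 5 had probes of both signs. *Kif23* was the mitotic gene among them. The probe behind its value and a second probe, which fell from 82.1 to 30.5 with a log2 ratio of -1.61, are assigned to the reference transcript NM_024245 in the array design. Another, named after the cDNA AK076271 (chr9:61770729-61770788, mm9), had 23.6 and 45.1, a log2 ratio of 0.75. The probe behind the value of *Kif23* is shown as the lowest ratio measured on both arrays in the main setting, and it too spans an intron.
*Kif23*, probe with a log2 ratio of -2.06, chr9:61767733-61768853: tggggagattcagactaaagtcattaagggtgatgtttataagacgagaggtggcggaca

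No probe of a kinesin shared a run of 20 bases with a probe of another gene. Exons and introns of mm9 were not annotated here, so the placement of the discordant probes in their transcripts was not tested.

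The proteins that work with each group were described in the same way. Of 14 partners in division 13 had a ratio below 0 and 8 passed the threshold (57.1%, beside 2.81% of all genes), with a median log2 ratio of -1.52. The genes that fell were *Birc5*, *Cenpe*, *Ect2*, *Hmmr*, *Kntc1*, *Prc1*, *Spag5* and *Tpx2*. The study's list of mitotic genes, drawn from these same arrays, also holds *Birc5*, *Cdca8*, *Cenpe*, *Kntc1* and *Tpx2*. The direction of these genes is therefore not independent of that choice. *Cdca8* did not pass here, with a Z score of -1.85. The partners, like the role groups, were chosen with earlier results of these data known. *Prc1*, which recruits *Kif4* to the central spindle, fell from 2986 to 1165, a log2 ratio of -1.54. *Cenpe*, itself a kinesin of the kinetochore whose name keeps it outside the Kif genes, fell from 1196 to 385, a log2 ratio of -1.82. *Ect2*, which centralspindlin recruits, fell from 1036 to 251, a log2 ratio of -2.23. *Racgap1*, the other subunit of centralspindlin beside *Kif23*, had 1268 and 890, a log2 ratio of -0.69, and did not pass. The signals of *Prc1*, *Cenpe*, *Ect2* and *Racgap1* lay far above background, unlike those of most mitotic kinesins that fell. Other partners that fell were dimmer, such as *Kntc1* (277 and 74.1) and *Spag5* (200.5 and 80.0). *Ckap5*, a microtubule polymerase, had a ratio above 0, at 0.05.

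Of 15 partners in transport 12 had a ratio above 0 and 3 below, and 0 passed the threshold, beside 6.3% of all genes. Their median log2 ratio was 0.14, between -0.34 for the light chain *Klc3* and 0.31 for the adaptor *Ppfia1*. *Rhot1* and *Rhot2*, the Miro proteins that tie mitochondria to kinesin, both had a log2 ratio of 0.08. *Trak1* and *Trak2*, their adaptors, had 0.14 and -0.10. Of 18 genes of dynein and dynactin, the opposing motor, 9 lay on each side of 0, with ratios of -0.34 to 0.53. Past the threshold were 0, beside 6.3% of all genes. Of 14 tubulins, *Tuba8* rose from 182 to 862, a log2 ratio of 2.06, and none of the others passed. That is 1 of 14 upward (7.14%), beside 3.5% of all genes. The median over the list was -0.12.

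**Figure D4:**
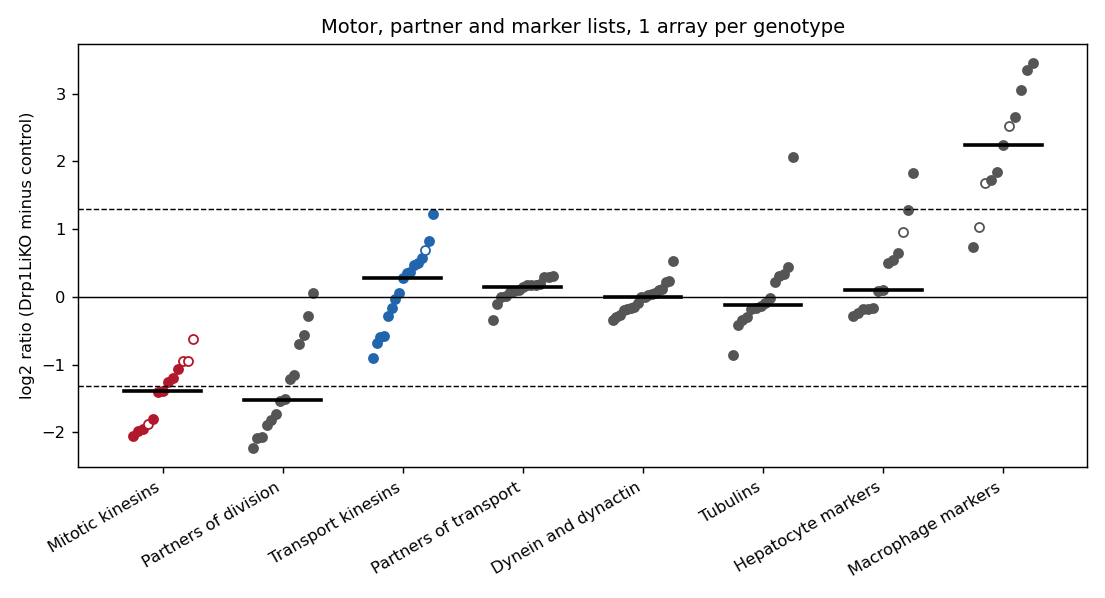
Log2 ratio (y axis, *Drp1*LiKO minus control) of each compared gene of 8 lists (x axis), 1 array per genotype; filled circles were well above background on both arrays, open circles on 1, black bars are medians over all compared genes of a list, and dashed lines mark a Z score of 2 or -2. Mitotic kinesins and partners of division have medians of -1.39 and -1.52, transport kinesins, their partners and dynein lie around 0, and macrophage markers have a median of 2.25.

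Markers of other cells also differed between the arrays. All 11 compared macrophage markers had higher values in *Drp1*LiKO cells, 8 measured on both arrays and 3 as bounds, 9 of them past the threshold, beside 3.5% of all genes, and their summed scaled signal was 15.7 and 60.7 on the control and *Drp1*LiKO arrays. All 10 endothelial markers had a ratio above 0, 8 measured on both arrays and *Lyve1* and *Tek* as bounds. Of the 10, 5 passed the threshold, *Lyve1* among them, beside 3.5% of all genes. Their sums were 14.5 and 26.8. Without *Egfl7*, and with dim signals not raised to the floor, the endothelial sums were 2.38 and 7.28. The macrophage sums without *Cd68*, taken in the same way, were 8.12 and 33.7. In each of these lists the sign of a bound follows from the filter and the floor. A gene seen on the *Drp1*LiKO array alone with a ratio below 0 has no fold. Of 7 stellate cell markers 4 were measured on both arrays, all above 0, with a median log2 ratio of 1.04. Past the threshold were 3 of the 7, beside 3.5% of all genes. These were *Col1a2*, measured on both arrays, and *Pdgfrb* and *Col3a1*, which are bounds. *Des* had no fold. The sums were 69.5 and 73.9, most of which was *Acta2*. Without *Acta2* the scaled signals, with dim ones not raised to the floor, summed to 1.00 and 4.63. Of 5 cholangiocyte markers 0 passed, beside 6.3% of all genes, with sums of 94.7 and 70.8. Without *Spp1* and without the floor the sums were 15.8 and 13.5. Of 5 nerve cell markers *Map2* fell, from 74.2 to a signal not well above background, and was at least 5.62-fold lower. None of the others passed, and of all genes 2.81% fell. The median of the list was -0.16, with sums of 10.4 and 7.88. Without *Snap25* and without the floor the sums were 1.04 and 1.00. The 13 hepatocyte markers had a median log2 ratio of 0.10 and sums of 2675 and 2651, so the labelled cell type was present in both arrays. Without *Serpina1a* and without the floor the sums were 1594 and 1697. *Ahsg* alone passed the threshold, upward, beside 3.5% of all genes. In RNA of a whole culture, fewer cells of a type and less RNA per cell cannot be told apart, and the part of these markers in the kinesin values was not tested.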

How the data were processed

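RNA of control and *Drp1*LiKO primary hepatocytes was labeled with Cy3 and measured on 1 Agilent 60-mer mouse array each. The authors deposited the Feature Extraction output (version 9.5.1.1 by the submitters' notes, whereas the file headers name another), with the processed signal of each spot as an intensity, background-subtracted and not normalized between arrays. They also deposited a table of normalized intensities, by a method not given in the sources used here, which served as an alternative because its *Drp1*LiKO column did not keep the probe order of the array.

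Control and outlier spots were dropped, spots of a probe were averaged on the log2 scale, and each array was scaled to its 75th percentile. The comparison took probes well above background on 1 array or both, with dim signals raised to the lowest signal well above background on that array. A gene was its brightest probe, and the threshold was a Z score of 2, as the study used. All 41 kinesin genes, the targeted gene and members of the partner, motor, tubulin and marker lists could be named. The kinesin genes, role groups, lists and motifs were chosen with earlier results of these data known. Groups came from the sample labels, and with 1 array per group no test was run and precision is limited by that number.

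Array coordinates are in mm9, as the files give them, and promoter windows those of RefSeq, GRCm38.p6. The 8 strings searched on both strands were the CHR core TTTGAA with its longer form TTTGAAT and its variant TTCGAA as well as the NF-Y box CCAAT and, for E2F, the elements TTTGGCGC with its shorter form TTGGCGC as well as TTTCCCGC plus the partly overlapping GGCGGGAA on the opposite strand. The longer forms hold the shorter ones.

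The alternatives were quantile normalization, the percentile over probes well above background on both arrays, spike-in scaling, normexp background correction with an offset of 50, the deposited normalized intensities, probes on both arrays only, no filter, no floor, outlier spots kept, the median over the probes of a gene, a Z score from the median and median absolute deviation, and a 2-fold threshold. The steps were tested on simulated data. The software was R 4.3.3 with limma 3.58.1, and Python 3.11.15 with numpy 2.4.6, pandas 2.3.3 and matplotlib 3.10.9.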

Additional observations from a re-analysis of the deposited data

How the results depend on the processing

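In all 12 alternative settings 2 kinesin genes, *Kif4* and *Kif23*, passed the threshold. With quantile normalization, the percentile over probes of both arrays, spike-in scaling or outlier spots kept, the 8 genes that fell were the same genes. The 9 mitotic genes measured on both arrays were below 0 in every setting. The sign of the 4 seen on the control array alone follows from the filter and the floor, and with the deposited normalized values *Kifc1*, one of them, had 0.04. The difference of the mitotic and transport medians ranged from -1.77 to -0.93.

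With normexp correction 5 kinesins passed downward (*Kif20a*, *Kif20b*, *Kif22*, *Kif23* and *Kif4*), of which 2 were shared with the main setting, 2 transport genes passed upward (*Kif3a* and *Kif3c*), so that 2 kinesins were higher, and the mitotic median was -0.72. The dim *Kif11*, *Kif14*, *Kif18a*, *Kif18b*, *Kif26b* and *Kif2c* did not pass there, beside 547 genes downward and 718 upward of all 20165. With the deposited values 4 kinesins, all mitotic, and 5 division partners passed downward, and 42.9% of all genes past the threshold were higher, beside 55.5% in the main setting. With probes of both arrays only, 1 kinesin, the transport gene *Kif3c*, passed upward and the transport median was 0.17. Without a filter it passed as well (1 gene), and 69.4% of the 1952 genes past the threshold were higher. The median of all genes was then -0.47, with probes dim on both arrays held at or above the floors of -4.10 and -4.57. Without a floor 5 division partners passed downward, *Kif18a* and *Kif18b* did not pass and *Kif15* did, so that 6 kinesins were shared with the main setting. The log2 ratios of *Kif18a* and *Kif18b* were unchanged there, at -1.39 and -1.40, so the Z score alone had moved. With the median absolute deviation 14 kinesins passed downward, 12 of them mitotic, 3 kinesins upward and 4 transport genes in either direction, beside 1443 genes downward and 1722 upward of all. At 2-fold, 1 kinesin passed upward, again the transport gene *Kif3c*, and 925 and 1073 genes of all passed down and up. What else lay behind these differences was not tested. *Kif26b* did not pass by the median of its probes, at -0.89.

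No paired analysis was possible because each group had 1 array. Spot noise was known for 4 control and 8 *Drp1*LiKO probes at signals of 16 to 64, where the mitotic kinesins that fell lay on the *Drp1*LiKO array if well above background, so their errors are rough. Biological spread was not measured.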

Other observations

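A pair of loci with kinesin names fell outside the naming rule. *Kif4-ps*, a pseudogene of *Kif4*, had signals of 3.76 and 3.05, and *Kif16bos*, a transcript opposite *Kif16b*, had 8.0 and 6.43, neither of them well above background on either array.

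The CHR core is not a mark of every gene that fell. It stood in 24.6% of 370 promoter windows of genes past the threshold downward, in 14.8% of 532 windows of genes past it upward and in 1913 of the 14686 windows of compared genes. Within 50 bases of the start the shares were 14.6%, 3.2% and 3.38%. Windows of 1 gene with several starts overlap, so they are not independent, and the shares are given as a description.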
